A study of Homo sapiens with 4 samples.

Results

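A set of 10 genes of the TGF-beta and BMP pathways were followed in FTC-133 and 8505C thyroid cancer cells with and without overexpression of CRABP1, the cellular retinoic acid binding protein. They were 4 ligands (INHBA, TGFB2, BMP2 and BMP4), the secreted BMP antagonist GREM1, 3 transcriptional regulators of the ID family (ID1, ID2 and ID3) and 2 inhibitory SMADs (SMAD6 and SMAD7). The 10 symbols were each matched to 1 Ensembl identifier among the 58884 genes of the deposited table, and all 10 were found. Total RNA was sequenced in 4 libraries, 1 for each of FTC-133 transfected with a CRABP1 vector, FTC-133 with empty vector, 8505C with the CRABP1 vector and 8505C with empty vector. FTC-133 was derived from a follicular and 8505C from an anaplastic thyroid carcinoma. The labels do not say whether the CRABP1 cells were a pool or a clone, or how many cultures were used. Values are TPM, in which reads are corrected for gene length and every library is brought to one common total.

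Ligands of this superfamily bind pairs of type I and type II serine/threonine kinase receptors. TGF-beta and activin ligands mainly lead to phosphorylation of SMAD2 and SMAD3, and BMPs to that of SMAD1, SMAD5 and SMAD9, which then act with SMAD4 on target genes. ID1, ID2 and ID3 are classic BMP target genes, and SMAD6 and SMAD7 are induced by the pathway and inhibit it. In thyroid follicular cells TGF-beta is known as an inhibitor of growth and of differentiated function.

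Upstream sequences are given for ID1, SMAD6 and SMAD7, target genes that were lower with CRABP1 in FTC-133, and for BMP4, which of the 4 ligands among the 10 genes differed most there. They are the 250 bases before a RefSeq transcription start (GRCh38.p14), written 5′ to 3′ on the gene's strand. Capitals mark 3 motifs bound by SMAD proteins: the palindrome GTCTAGAC, the half-site CAGAC, which reads as GTCTG when it lies on the other strand, and a GC-rich element with the letters GGCGCC. Both strands were searched, and no letters of one motif overlapped another in these windows.
ID1, chr20:31605039-31605288, plus strand: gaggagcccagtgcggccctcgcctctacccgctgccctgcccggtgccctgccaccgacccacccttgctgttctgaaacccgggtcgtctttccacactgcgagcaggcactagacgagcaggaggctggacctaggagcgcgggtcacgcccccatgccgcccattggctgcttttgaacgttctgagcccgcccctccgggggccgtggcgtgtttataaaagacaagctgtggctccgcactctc
SMAD6, chr15:66701986-66702235, plus strand: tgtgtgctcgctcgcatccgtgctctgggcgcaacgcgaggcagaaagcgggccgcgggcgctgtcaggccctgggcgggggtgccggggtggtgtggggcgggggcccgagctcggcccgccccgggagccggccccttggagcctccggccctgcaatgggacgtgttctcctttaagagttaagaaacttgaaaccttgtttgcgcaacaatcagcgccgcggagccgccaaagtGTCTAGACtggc
SMAD7, chr18:48949334-48949583, minus strand: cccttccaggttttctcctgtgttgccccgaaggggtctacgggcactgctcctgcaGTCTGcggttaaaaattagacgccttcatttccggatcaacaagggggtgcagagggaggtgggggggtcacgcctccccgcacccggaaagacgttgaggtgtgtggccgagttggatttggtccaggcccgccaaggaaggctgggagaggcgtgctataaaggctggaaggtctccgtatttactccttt
BMP4, chr14:53955051-53955300, minus strand: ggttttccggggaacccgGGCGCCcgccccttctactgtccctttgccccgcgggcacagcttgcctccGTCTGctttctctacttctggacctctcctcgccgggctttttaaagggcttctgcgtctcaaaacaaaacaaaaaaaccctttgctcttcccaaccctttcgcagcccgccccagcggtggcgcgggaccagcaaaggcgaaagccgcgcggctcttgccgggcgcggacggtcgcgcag

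SMAD6 had the full palindrome 12 bases before its start (position -12), and SMAD7 a half-site at position -193. The BMP4 window had a GC-rich element at position -232 and a half-site at position -181. ID1 had none of the 3 motifs, as spelled above, in these 250 bases, and bases further upstream were not searched. Among 35116 windows of the same length, 0.182% held the palindrome, 38.0% the half-site on either strand and 16.4% the GC-rich element, so only the palindrome was rare. A match to such letters is a description and not evidence of binding. The last 6 bases of the ID1 window and the last 8 of the SMAD6 window lie in exons of GENCODE 29. BMP4 and SMAD7 have further RefSeq starts, 3 in all for each gene. Another SMAD7 window held half-sites at positions -217 and -128, and another BMP4 window held a half-site at -46. Among genes whose windows are not printed, GREM1, which was higher with CRABP1 in FTC-133, had half-sites at -196 and -99 and GC-rich elements at -83 and -52. A further GREM1 window had a half-site at -121. TGFB2 had half-sites at -243 and -53, and INHBA had no motif. The windows of ID2 and ID3 lie mostly or wholly in annotated exons of those genes. ID2 had none of the motifs there, and ID3 had 1 half-site at position -147.

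Depth was similar in the 4 libraries. Low TPM values fell on whole multiples of a step per library once multiplied by gene length, which put 19174557 to 20331464 reads behind each library. With its vector CRABP1 itself reached 537 TPM in 8505C and 385 TPM in FTC-133, and was listed at 0 in both empty-vector libraries. Mitochondrially encoded genes held 25.9% to 28.6% of the TPM. Of 8 thyroid follicular cell markers, 2 were at or above 1 TPM in both 8505C libraries (NKX2-1 and HHEX) and 4 in both FTC-133 libraries (PAX8, NKX2-1, FOXE1 and HHEX). The markers at this level were transcription factors. TG, TSHR and SLC5A5 stayed under it in every library; SLC5A5 was listed at 0 in all 4, and TSHR in both of 8505C. Of 5 immune markers CD14 was at 28.6 TPM in 8505C with CRABP1 and 56.5 TPM in 8505C with vector, and none reached 1 TPM in FTC-133. Of 7 fibroblast markers 5 were at or above 1 TPM in each library except 8505C with CRABP1, which had 4. Their sums were at 78.4 and 57.1 TPM in 8505C with CRABP1 and with vector, and at 388 and 649 TPM in FTC-133. Among 5 endothelial markers CDH5 was at 97.9 and 103 TPM in 8505C with CRABP1 and with vector, against 0.125 TPM and a listed 0 in FTC-133. KDR ran the other way, at 0.210 and 0.719 TPM in 8505C against 3.18 and 2.04 TPM in FTC-133, as did VWF, at 0.0380 and 0.170 TPM against 0.274 and 0.813 TPM; PECAM1 was at 2.19 and 3.68 TPM against 1.44 and 1.76 TPM, and CLDN5 was under 1 TPM in every library.

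With 1 library per group, a ratio within a line has no replicate check and no p-value. The 95% intervals given with folds cover counting error only; they come from approximate read numbers, since most of the 10 genes did not fall on exact whole reads. For log2 ratios 1 TPM was added to every value, so that changes of low genes are understated. A gene counted as higher or lower at 2-fold on that scale, provided its mean over the compared libraries reached 1 TPM. Plain folds are TPM ratios without the pseudocount. In bulk RNA, fewer cells expressing a gene and less RNA per cell cannot be told apart.

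The order of the levels differed between the lines. In FTC-133 with CRABP1, the order was INHBA at 608 TPM, GREM1 at 105, ID1 at 32.3, TGFB2 at 28.0, SMAD7 at 15.0, BMP2 at 12.8, ID3 at 12.4, ID2 at 4.88, BMP4 at 2.33 and SMAD6 at 1.99 TPM. With vector the first 5 places were held in the order INHBA, GREM1, ID1, TGFB2 and SMAD7, with INHBA at 441 TPM. INHBA ranked 117 and 176 among all genes of the FTC-133 libraries with CRABP1 and with vector. In 8505C, ID1 led at 337 TPM with CRABP1 and 353 TPM with vector, followed by BMP4 and TGFB2, and GREM1 came last in both. ID1 ranked 322 and 296 among all genes there. Counting intervals overlapped between neighbours for ID1 and TGFB2, for SMAD7, BMP2 and ID3, and for BMP4 and SMAD6 in FTC-133 with CRABP1. In FTC-133 with vector they overlapped for BMP4, ID2 and BMP2, and in 8505C with vector for BMP4 and TGFB2, for BMP2 and ID3, and for INHBA and SMAD7.

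**Figure D1:**
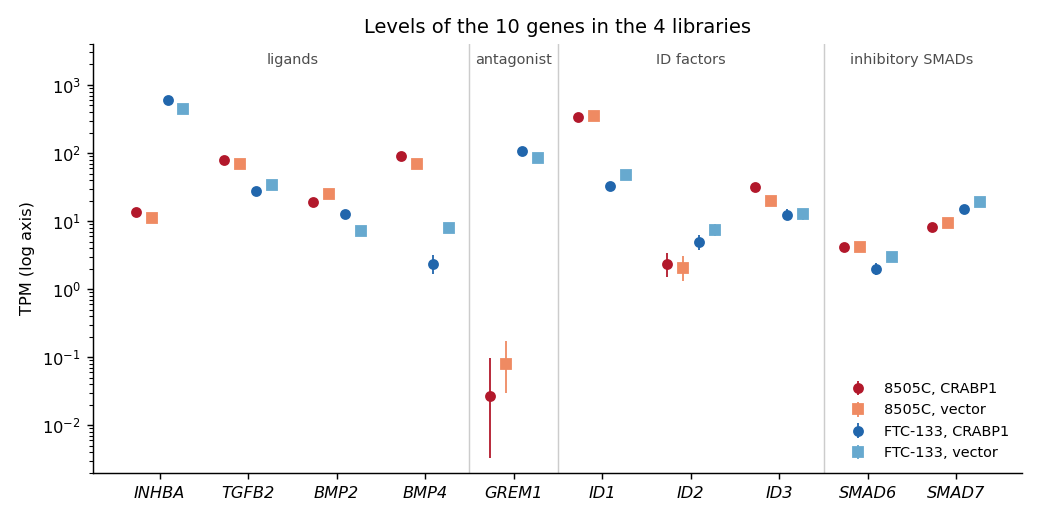
TPM (log axis) of the 10 genes in the 4 libraries, grouped by role; points are single libraries and bars are 95% Poisson intervals of the reads. INHBA and GREM1 are far higher in FTC-133, at 608 and 105 TPM with CRABP1, while BMP4 and ID1 are far higher in 8505C, at 89.9 and 337 TPM with CRABP1.

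In FTC-133, CRABP1 was accompanied by a shift between the 2 BMP ligands. BMP4, a BMP that acts through SMAD1/5/9, was at 2.33 TPM with CRABP1 (about 38 reads) and 7.89 TPM with vector (about 132 reads). It was 3.39-fold lower (95% interval 2.33 to 4.97), with a log2 ratio of -1.42, and was the 1 gene of the 10 past 2-fold. Over all 19899 genes compared, 4.92% were lower and 10.9% differed either way by the same rule; with the comparison kept to protein-coding genes of 20 reads or more, these shares were 1.46% and 3.52%. A count of 1 gene of 10 lies near the 10.9% over all genes and above the 3.52%, and 10 genes are too few to tell these apart. BMP2, the closest relative of BMP4, went the other way, at 12.8 TPM with CRABP1 and 7.25 TPM with vector, a ratio of 1.76 (1.43 to 2.19). The sum of both ligands was 15.1 TPM in each library, of which BMP2 made up 84.6% with CRABP1 and 47.9% with vector.

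The other ligands and the antagonist differed less in FTC-133. INHBA encodes the subunit of activin A, a ligand of the SMAD2/3 branch, and was at 608 TPM with CRABP1 and 441 TPM with vector, a ratio of 1.38 (1.35 to 1.41). TGFB2, a TGF-beta isoform, was at 28.0 and 33.5 TPM with CRABP1 and with vector, 1.20-fold lower (1.09 to 1.32). GREM1, gremlin 1, binds and blocks BMP2 and BMP4; it was at 105 and 84.5 TPM with CRABP1 and with vector, a ratio of 1.25 (1.21 to 1.29). The narrow intervals of INHBA and GREM1 reflect their many reads and do not include the spread between cultures.

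The target genes were lower or level with CRABP1 in FTC-133. ID proteins bind E-proteins and keep them from DNA. ID1 was at 32.3 TPM with CRABP1 and 47.5 TPM with vector, 1.47-fold lower (1.23 to 1.76). ID2 was at 4.88 and 7.39 TPM with CRABP1 and with vector, 1.51-fold lower (1.07 to 2.15). ID3 was at 12.4 and 12.5 TPM, with a ratio of 0.991 (0.762 to 1.28), which was not distinguishable at this depth. Of the inhibitory SMADs, SMAD6, which acts mainly on BMP receptors, was at 1.99 and 2.98 TPM with CRABP1 and with vector, a ratio of 0.668 (0.507 to 0.877). SMAD7, which acts on both branches, was 1.28-fold lower (1.12 to 1.46), with 15.0 TPM under CRABP1 and 19.2 TPM under vector. The 5 target genes therefore all had ratios below 1, and the interval included 1 for ID3 only. Of the 10 genes 7 had log2 ratios below 0, and their median was -0.29, against a median of 0.06 over all genes.

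**Figure D2:**
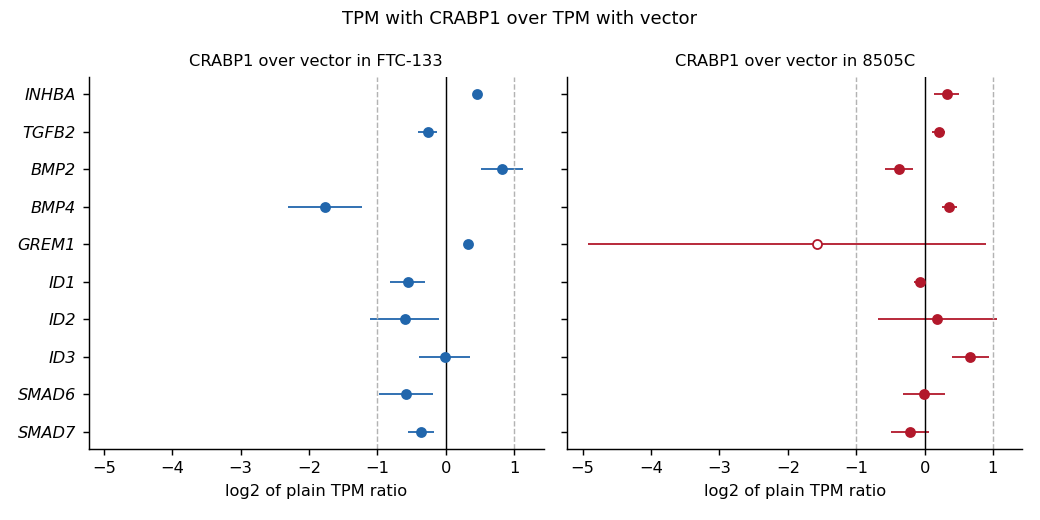
Log2 of the plain TPM ratio of CRABP1 over vector for the 10 genes in FTC-133 (left) and 8505C (right); points are ratios of 2 single libraries, bars are 95% counting intervals, dashed lines mark 2-fold, and the open point is a gene with a mean under 1 TPM. BMP4 in FTC-133 is the 1 filled point with an interval wholly past 2-fold, and BMP2 and BMP4 lie on opposite sides of 0 in each line, with their sides exchanged between the lines.

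In 8505C the ligand shift ran in the opposite direction and was smaller. BMP4 was at 89.9 TPM with CRABP1 and 69.8 TPM with vector, a ratio of 1.29 (1.19 to 1.39), and BMP2 at 19.1 and 24.8 TPM, a ratio of 0.770 (0.667 to 0.886). BMP2 made up 17.6% of the sum of both with CRABP1 and 26.2% with vector, and the sum was 109 and 94.7 TPM. Whether the effect of CRABP1 on either ligand differs between the lines could not be tested, since an interaction leaves no residual degree of freedom in 4 single libraries.

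INHBA was higher with CRABP1 in 8505C too, at 13.7 TPM against 11.0 TPM with vector, a ratio of 1.25 (1.10 to 1.42). TGFB2 was at 78.5 and 68.1 TPM with CRABP1 and with vector, a ratio of 1.15 (1.08 to 1.23). GREM1 was near the detection limit, at 0.0267 TPM from about 2 reads with CRABP1 and 0.0798 TPM from about 6 reads with vector. Its ratio of 0.334 had an interval of 0.0330 to 1.87, so no difference was detectable.

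Of the targets in 8505C, ID3 stood out. It was at 31.5 TPM with CRABP1 and 19.8 TPM with vector, a ratio of 1.59 (1.32 to 1.93). ID1 was at 337 and 353 TPM with CRABP1 and with vector, and its ratio of 0.956 had an interval of 0.900 to 1.01. ID2, at 2.32 and 2.04 TPM from about 26 and 23 reads, had a ratio of 1.13 (0.622 to 2.08). SMAD6 was at 4.19 and 4.23 TPM, with a ratio of 0.992 (0.804 to 1.22), and SMAD7 at 8.11 and 9.41 TPM, with a ratio of 0.862 (0.712 to 1.04). The interval thus included 1 for 4 of the 5 targets. Of the 9 genes whose mean in 8505C reached 1 TPM, none passed 2-fold, where 7.77% of 17561 genes did, 3.70% higher and 4.07% lower. With protein-coding genes of 20 reads or more it was 0.741%. At 1.5-fold, ID3 was the 1 gene past the threshold in 8505C (15.0% of all genes, 7.39% higher), and BMP2 and BMP4 were the 2 in FTC-133 (22.7% of all genes, 13.1% higher and 9.69% lower).

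Between the lines, 5 of the 9 genes measured in both had log2 ratios of opposite sign, a share of 55.6%. Over 15580 genes measured in both lines the share was 48.1%, so opposite signs were about as frequent among all genes. Higher in both was INHBA, and lower in both were ID1, SMAD6 and SMAD7. Taking the lines as the replicates, limma with cell line as a term and Benjamini-Hochberg adjustment over 19513 genes called 0 of the 10 genes, where 0.00512% of all genes were called. At an unadjusted p under 0.05, 1 of the 10 passed: INHBA, whose mean log2 difference was 0.38 with an SE of 0.10 and a limma adjusted p of 0.920, with CRABP1 above vector in each line. Over all genes 4.73% had an unadjusted p under 0.05, and in a fit with no trend, or with no cell line term, INHBA no longer did and 0 of the 10 passed. The fit had 1 residual degree of freedom, and its p-values cover no more than the spread among these 4 libraries. BMP4 had a mean log2 difference of -0.53 with an SE of 0.48, and BMP2 of 0.19 with an SE of 0.32, as the lines disagreed in sign.

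The wider pathway was described with 7 lists of ligands, receptors, extracellular regulators, SMADs, intracellular inhibitors, BMP targets and TGF-beta targets, 122 genes in all. In FTC-133, 83 were measured, and 4 were higher and 7 lower by 2-fold with CRABP1, against 6.02% and 4.92% of all genes. Their median log2 ratio was 0.09, close to the 0.06 of all genes. The ligands GDF15 and INHBE were higher: GDF15, a stress-induced ligand that signals through GFRAL, was at 194 and 96.4 TPM with CRABP1 and with vector (2.01-fold, 1.87 to 2.17), and INHBE, the activin E subunit, at 191 and 89.5 TPM (2.14-fold, 2.01 to 2.28). GDF15 lay at the threshold: its log2 ratio was 0.96, under 2-fold, with median-ratio scaling. Follistatin, FST, which sequesters activins, was at 22.7 and 10.3 TPM (2.20-fold, 1.82 to 2.66), and CDKN2B, a CDK inhibitor induced by TGF-beta, at 60.9 and 27.5 TPM (2.22-fold, 2.01 to 2.44). The receptor ACVRL1 and the antagonist NOG fell just short of 2-fold, at log2 ratios of 0.95 and 0.96. With a pseudocount of 0.1 both passed, at 1.39 and 1.01. ACVRL1 was at 3.12 and 1.13 TPM from about 83 and 31 reads (2.76-fold, 1.81 to 4.32).

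Beside BMP4, the ligand GDF6 was lower in FTC-133, at 1.23 and 5.10 TPM with CRABP1 and with vector (4.16-fold, 2.65 to 6.79). For the activin-type receptor ACVR1C the levels were 1.57 and 4.50 TPM, a 2.87-fold difference (2.20 to 3.77). Thrombospondin 1, THBS1, an activator of latent TGF-beta, was 2.08-fold lower (1.97 to 2.21), with 37.2 and 77.5 TPM. Lower TGF-beta targets were the collagen gene COL1A1 at 175 and 388 TPM, the actin gene ACTA2 at 12.6 and 28.5 TPM and ANGPTL4 at 1.84 and 5.42 TPM. COL1A1 is also a fibroblast marker, as is COL1A2, which was at 156 and 213 TPM. Of the other 5 fibroblast markers, PDGFRB differed most, at 18.5 and 9.60 TPM with CRABP1 and with vector. LUM was at 36.4 and 35.3 TPM and COL3A1 at 2.95 and 3.18 TPM. DCN was at 0.332 and 0.278 TPM from about 23 and 19 reads, and PDGFRA at 0.119 and 0.212 TPM from about 6 and 11 reads. The 24 TGF-beta targets did not move as one, with 15 log2 ratios above 0 and 9 below and a median of 0.16. Among 10 measured BMP targets 4 were above 0 and 6 below, with a median of -0.17 and 0 past 2-fold.

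In 8505C 0 of 80 measured pathway genes passed 2-fold with CRABP1, against the 7.77% of all genes. With protein-coding genes of 20 reads or more that share was 0.741%, so few would be looked for among 80. Of the 80 log2 ratios 31 were above 0 and 49 below, while 54.7% of all genes were above 0. The median of the 80 was -0.04, against 0.02 over all genes. A further pair of genes was singled out after their values were seen, because they moved in opposite directions in the lines. Opposite signs were common, in 39 (52.7%) of the 74 pathway genes measured in both lines and in 48.1% of all genes. This trait alone does not set the pair apart. Noggin, NOG, a secreted antagonist of BMP2 and BMP4, was at 25.4 and 12.6 TPM in FTC-133 with CRABP1 and with vector (2.02-fold, 1.63 to 2.51) and at 11.6 and 19.4 TPM in 8505C (1.68-fold lower, 1.32 to 2.14). TGFB1, the main TGF-beta isoform, was at 74.0 and 46.6 TPM in FTC-133 (1.59-fold, 1.45 to 1.74) and at 31.4 and 43.2 TPM in 8505C (1.38-fold lower, 1.23 to 1.54). Neither passed 2-fold on the log2 scale of TPM plus 1.

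**Figure D3:**
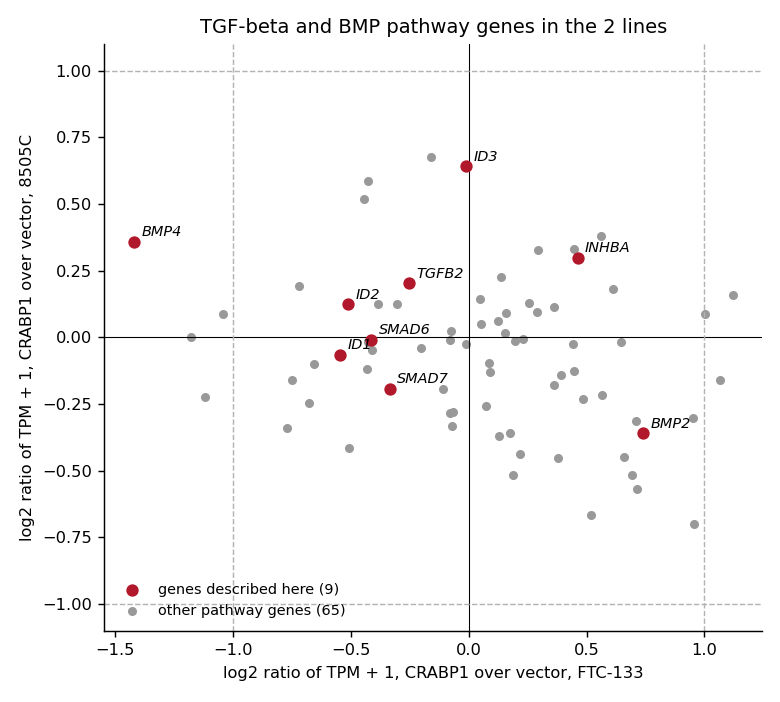
Log2 ratio of TPM + 1, CRABP1 over vector, in FTC-133 (horizontal) and 8505C (vertical) for the 74 pathway genes measured in both lines; dashed lines mark 2-fold. BMP4 lies at -1.42 in FTC-133 and 0.36 in 8505C and BMP2 at 0.74 and -0.36, in opposite quadrants, and no gene passes 2-fold in 8505C.

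Most of the 10 genes differed between the lines. They were chosen with earlier results of these data known, so their counts cannot be tested against the shares over all genes. In vector cells, 7 of the 10 genes were past 2-fold, against 33.7% of 19470 genes: BMP2, BMP4, TGFB2 and ID1 were higher in 8505C (background 12.1%) and GREM1, INHBA and ID2 lower (background 21.6%). With protein-coding genes of 20 reads or more the background was 26.5%. In CRABP1 cells 6 were past 2-fold, against 34.3% of genes, with BMP4, TGFB2, ID1 and ID3 higher (background 11.3%) and GREM1 and INHBA lower (background 23.0%); with protein-coding genes of 20 reads or more it was 26.7%. The median log2 ratio of all genes was -0.17 in vector and -0.21 in CRABP1 cells, and -0.04 and -0.03 with median-ratio scaling. TGFB2 in vector cells lay at the threshold, with a plain fold of 2.03. With mitochondrially encoded genes removed, 3 of the genes were higher and 4 lower in vector cells.

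BMP4 was 38.6-fold higher in 8505C in CRABP1 cells (27.9 to 54.6) and 8.85-fold in vector cells (7.41 to 10.7). ID1 followed at 10.4-fold (9.06 to 12.1) and 7.43-fold (6.60 to 8.38). INHBA was at 13.7 and 11.0 TPM in 8505C against 608 and 441 TPM in FTC-133, with CRABP1 and with vector, 44.3-fold (40.9 to 48.3) and 40.2-fold lower (36.7 to 44.2). GREM1 was 3952-fold lower in 8505C with CRABP1 (1080 to 32241, from about 2 reads) and 1059-fold lower with vector (480 to 2851, from about 6 reads). Fibroblast markers differed in both directions between the lines. In vector cells COL1A1 and LUM were at 1.22 and 1.99 TPM in 8505C against 388 and 35.3 TPM in FTC-133, whereas COL3A1 was at 50.0 TPM in 8505C against 3.18 TPM in FTC-133 and DCN at 1.21 against 0.278 TPM. Their part in the INHBA and GREM1 differences was not tested.

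By limma over both states, with transfection as a term, 8 of the 10 genes passed at an adjusted p of 0.05, where 35.2% of 19513 genes did. Higher in 8505C were BMP4 with a log2 difference of 3.88 (SE 0.48, adjusted p = 0.0140), ID1 with 3.11 (SE 0.15, adjusted p = 0.00423), TGFB2 with 1.23 (SE 0.16, adjusted p = 0.0146) and ID3 with 0.95 (SE 0.21, adjusted p = 0.0417). Lower were GREM1 with -6.50 (SE 0.19) and INHBA with -5.29 (SE 0.10), both at an adjusted p of 0.00336, SMAD7 with -0.88 (SE 0.15, adjusted p = 0.0239) and ID2 with -1.14 (SE 0.28, adjusted p = 0.0495). Each of the 8 had the same direction in both states. BMP2, with 1.10 (SE 0.32, adjusted p = 0.0695), and SMAD6, with 0.59 (SE 0.26, adjusted p = 0.156), did not pass. Of all genes, 2542 (13.0%) were called higher and 4335 (22.2%) lower, or 3226 and 3391 with median-ratio scaling. In this test the CRABP1 and vector libraries of a line act as its replicates, so it rests on 2 libraries a line. The choice of the 10 genes with earlier results known limits this count as well.

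**Figure D4:**
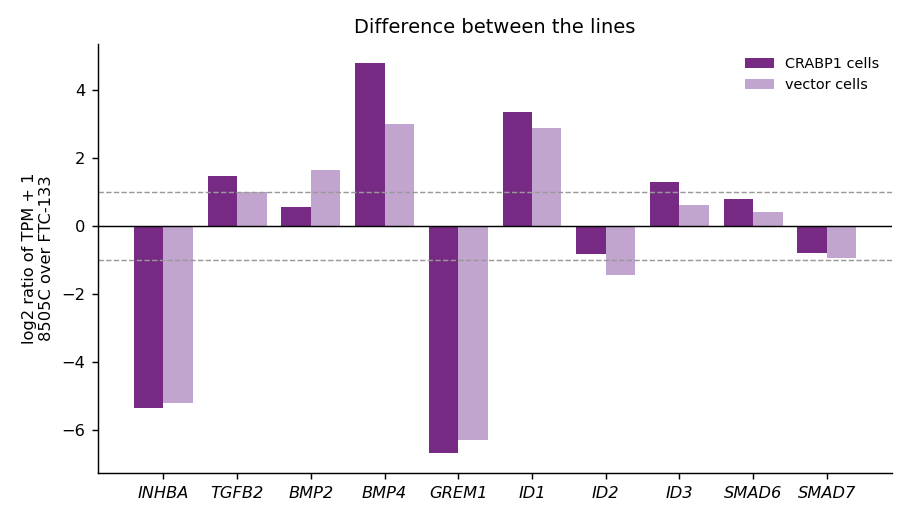
Log2 ratio of TPM + 1 of 8505C over FTC-133 for the 10 genes in CRABP1 cells (dark bars) and vector cells (light bars); each bar compares 2 single libraries and dashed lines mark 2-fold. INHBA and GREM1 point down by more than 5 log2 units in both states, and BMP4 and ID1 point up.

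Targets of the 2 branches also differed between the lines. Of 11 BMP targets measured in vector cells, 5 were higher and 1 lower by 2-fold in 8505C, with a median log2 ratio of 0.62, whereas of 24 TGF-beta targets 3 were higher and 13 lower, with a median of -1.71, against -0.17 over all genes. Over all genes the shares were 12.1% higher and 21.6% lower. The BMP target list includes ID1, ID2, ID3, SMAD6 and SMAD7, described above, so its counts in part repeat their values. SMAD7 is in both lists. Both lists were chosen with earlier results of these data known, and the contrast between the branches was not tested. Among the pathway genes with the largest ratios in vector cells were COL1A2, COL1A1, INHBE, GREM1, TGFBI, HMOX1 and INHBA, and of these all but TGFBI were lower in 8505C. TGFBI, a TGF-beta-induced matrix protein, was at 770 TPM in 8505C against 11.0 TPM in FTC-133 (70.1-fold, 64.0 to 76.9). COL1A2 was at 0.0352 TPM from about 2 reads in 8505C against 213 TPM in FTC-133 (6041-fold lower, 1672 to 49886) and COL1A1 at 1.22 against 388 TPM. INHBE was at 0.0645 TPM from about 1 read against 89.5 TPM (1388-fold lower, 246 to 54288), and the heme oxygenase gene HMOX1 at 6.24 against 328 TPM.

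Genes whose 3 log2 ratios lay closest to those of BMP4, which of the 10 genes had the largest ratio in FTC-133, were sought among 11519 named genes outside the lists that averaged 5 TPM or more. They were FBXL7 at a Euclidean distance of 0.32, LNCAROD at 0.36 and BST1 at 0.49. FBXL7, for example, was at 1.36 and 5.81 TPM in FTC-133 with CRABP1 and with vector and at 50.6 and 45.4 TPM in 8505C. For ID3, which of the 10 genes had the largest ratio in 8505C, the nearest were PRSS23-AS1 at 0.18, TRIP13 at 0.20 and LMBRD2 at 0.22. The likeness is over 4 libraries only.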

How the data were processed

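The members and gene lists were chosen with earlier results of these data known. The authors deposited 1 table of TPM values for 58884 Ensembl genes in 4 libraries. Upstream steps named in the submitters' processing notes were quality control with FastQC, trimming with Trimmomatic 0.38 and counting with featureCounts 2.0.0, on GRCh38. The sources used here give no aligner, annotation or strand setting, so reads of INHBA and INHBA-AS1, GREM1 and AC090877.2, and ID2 and ID2-AS1 cannot be told apart; these partners were at most at 6.89, 1.96 and 0.357 TPM.

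Read numbers were recovered from TPM multiplied by GENCODE 29 union exon length, for 58611 identifiers. Of values no higher than 50 reads, 90.5% to 91.6% came within 0.02 of a whole read, depending on the library. They served only for Poisson intervals of levels, exact Clopper-Pearson intervals of ratios and a filter at 20 reads, and cover counting error only. A gene table named 58472 identifiers. Genes named in the text are the 10 members, list genes past 2-fold within a line, the 8 list genes with the largest line difference and the 3 nearest to the 2 leading members; some items are not reported here.

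limma 3.58.1 (R 4.3.3) with a mean-variance trend was fitted to log2 of TPM plus 1 over genes averaging 1 TPM or more, with cell line and transfection as terms, two-sided, and was tested on simulated data. Other steps used Python 3.11.15, pandas 2.3.3, NumPy 2.4.6 and SciPy 1.17.1. Alternatives were a pseudocount of 0.1, no filter, 5 TPM, median-ratio scaling, removal of mitochondrially encoded genes, 1.5-fold, a fit without trend, a fit without the other factor as a term and, added after seeing the data, protein-coding genes with at least 20 reads. Promoters came from RefSeq (GRCh38.p14) for 9 of the 10 genes.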

Additional observations from a re-analysis of the deposited data

Results flagged for a closer look

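Of the 10 genes 6 had log2 ratios of opposite sign in the 2 lines, and the difference was not tested, since each line had 1 library per state. For BMP4 the ratio in FTC-133 minus that in 8505C was -1.78, for BMP2 1.10, for ID3 -0.65, for ID2 -0.64, for TGFB2 -0.45 and for GREM1 0.39. The counting intervals excluded 1 in both lines for BMP4, BMP2 and TGFB2. For ID2, ID3 and GREM1 the interval included 1 in at least 1 line, and GREM1 rested on about 2 and 6 reads in 8505C. Without GREM1, whose mean in 8505C was under 1 TPM, 5 of the 9 genes measured in both lines had opposite signs (55.6%). Over all genes measured in both lines the share was 48.1%.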

How the results depend on the processing

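The counts of the 10 genes past 2-fold within a line moved by over 1.5 times at a 1.5-fold threshold, where 2 genes passed in FTC-133 (1 by 2-fold) and 1 in 8505C (0 by 2-fold). The limma count between the lines, 8, was 3 with no filter on low values, where more genes enter the fit, and 5 with no trend; the share over all genes, 35.2%, was 3.28% and 23.5% (441 higher and 741 lower, and 1530 higher and 3059 lower, against 2542 and 4335). ID2 lost its call under 5 alternatives, with adjusted p between 0.0297 and 0.134 over all alternatives that kept it, and dropped out at 5 TPM. ID3 lost its call with no filter (0.122), without mitochondrially encoded genes (0.0691) and with no trend (0.0904), and SMAD7 with no filter (0.0743) and with no trend (0.0509), as adjusted p. BMP4 and TGFB2 lost theirs with no filter (0.0740 and 0.0690). GREM1, INHBA and ID1 passed under each of the 7 alternatives. The limma difference of GREM1 with CRABP1 changed sign with a pseudocount of 0.1, to -0.093 (adjusted p = 0.985). The log2 ratio of GREM1 in FTC-133 was 0.32 with either pseudocount. The change thus lay in 8505C, where GREM1 rested on about 2 and 6 reads. The other counts of the 10 genes were within 1.5 times of those given. With CRABP1, over all genes 1 was called at 1 TPM, 1 at 5 TPM and 0 under the other 6 alternatives. Past 2-fold over all genes, higher and lower genes at 5 TPM numbered 354 and 237 in FTC-133 (1198 and 979 at 1 TPM) and 97 and 121 in 8505C (649 and 715 at 1 TPM; 1117 and 1162 with no filter). Between the lines they were 1260 and 1924 in vector cells (2362 and 4208 at 1 TPM) and 1177 and 2102 in CRABP1 cells (2220 and 4500 at 1 TPM). The labels give no replicate numbers to pair by; the cell line term of limma compares CRABP1 with vector within each line, and without it 0 of the 10 were called too. Depth limits GREM1 in 8505C, ID2 in both lines and BMP4 in FTC-133, where it rested on about 38 reads with CRABP1.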

Other observations

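The antisense gene INHBA-AS1, which overlaps INHBA, was at 6.89 and 5.05 TPM in FTC-133 with CRABP1 and with vector, and at 0.146 and 0.0363 TPM in 8505C. Among receptors, type II receptor TGFBR2 was at 375 TPM in 8505C with vector against 47.1 TPM in FTC-133 with vector, and type I receptor TGFBR1 at 44.3 against 102.6 TPM. The endothelial-type BMP receptor ACVRL1 was at 13.7 TPM in 8505C with vector against 1.13 TPM in FTC-133 with vector. With CRABP1 the gap was smaller, at 10.9 TPM in 8505C against 3.12 TPM in FTC-133. Of 5 endothelial markers, CDH5 and PECAM1 were at 103 and 3.68 TPM in 8505C with vector against a listed 0 and 1.76 TPM in FTC-133 with vector. VWF and KDR were at 0.170 and 0.719 TPM against 0.813 and 2.04 TPM, and CLDN5 at 0.287 against 0.0536 TPM. The part of these markers in the ACVRL1 difference was not tested. In vector cells the transducer SMAD3 was at 207 TPM in 8505C against 42.9 TPM in FTC-133, and SMAD9 at 14.2 against 24.0 TPM. SMAD1, SMAD2, SMAD4 and SMAD5 had log2 ratios between -0.35 and 0.03 in the same comparison. These genes were named after their values were seen.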
